A study of Mus musculus with 20 samples.

Results

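The genes described here encode mitochondrial and peroxisomal fatty acid oxidation in the mouse kidney. All 35 listed gene symbols were found among the 55471 gene identifiers of the count table, and all 35 passed the filter on low counts in both experiments of the study. By role they are 8 genes of fatty acid uptake, activation and carnitine transport (Slc27a2, Acsl1, Acsm1, Acsm2, Acsm3, Cpt2, Crat and Slc25a20), 12 of the mitochondrial oxidation spiral (Acadvl, Acadl, Acadm, Acads, Echs1, Hadh, Hadha, Hadhb, Acaa2, Eci1, Eci2 and Decr1), 3 of electron transfer (Etfa, Etfb and Etfdh), 8 of the peroxisome (Abcd3, Ehhadh, Hsd17b4, Acaa1a, Acaa1b, Phyh, Cat and Pex11a), 2 regulators (Ppara and Ppargc1a) and 2 of omega oxidation (Cyp4a10 and Cyp4a14).

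Fatty acids are activated to acyl-CoA esters, carried into mitochondria on carnitine, and shortened there in repeated rounds of dehydrogenation, hydration, dehydrogenation and thiolysis, with electrons passed to the respiratory chain by the electron transfer flavoprotein. Peroxisomes shorten very long and branched chains, and catalase removes the hydrogen peroxide this yields. The nuclear receptor PPAR alpha, encoded by Ppara, drives transcription of many of these genes with its coactivator PGC-1 alpha, encoded by Ppargc1a, and proximal tubule cells of the kidney cover much of their energy need by this route.

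Whole kidneys of female mice aged 2 months were sequenced, 1 library per mouse, from 2 experiments. In the first, on the Balb/c background, TERT KO/KO mice lacking the telomerase reverse transcriptase gene and their TERT WT/WT littermates received 12 mg/kg of Adriamycin (ADR, doxorubicin, toxic to podocytes) or saline into the tail vein, and kidneys were taken 18 days later (3 WT ADR, 4 WT saline, 3 KO ADR and 3 KO saline mice). The KO mice were of the first homozygous generation from heterozygous parents backcrossed for 10 generations. In the second, on a mixed background, 3 i-TERTci mice carried the doxycycline transactivator rtTA under the widely active CAG promoter together with a responder transgene for catalytically inactive TERT, each heterozygous. They were set against 4 actin-rtTA+ mice with the transactivator alone. Both groups drank doxycycline for about 15 days and were killed 8 days after its withdrawal, so the doxycycline and the transactivator are common to both groups, and the transgene is not restricted to a kidney cell type.

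Library totals ran between 39323498 and 48399322 counts. Tert itself had 1070, 1086 and 230 counts in the i-TERTci libraries, against 164, 87, 132 and 161 counts in the actin-rtTA+ libraries. In KO libraries Tert counts did not separate from those of WT libraries (51 to 210 counts in KO kidneys leaving out the library discussed next, against 122 to 379 counts in WT kidneys); a count over the whole gene does not show which exons the reads came from, and so does not check the deletion. The library labelled KO ADR replicate 2 stood apart. It held 261234 CPM of Alb, encoding serum albumin, against 3.44 to 87.7 CPM in the other 12 libraries of the ADR experiment, and 4.81 CPM of Lrp2, the proximal tubule endocytic receptor megalin, against 527 to 3307 CPM in the others. KO saline replicate 1 held the next highest Alb value, 87.7 CPM. Over 12 hepatocyte markers the library labelled KO ADR replicate 2 had a mean log2 level of 12.6, and the other ADR libraries 0.70 to 2.78. Over 16 proximal tubule markers it had 2.97, and the others 7.74 to 9.72. By these markers it was liver-like. It is left out of every group value below, so that KO ADR kidneys are represented by 2 mice. CPM are counts scaled to library size with edgeR's TMM factors.

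In control kidneys the genes took 1.24 to 1.30% of all counts in WT saline libraries and 1.09 to 1.34% in actin-rtTA+ libraries. Per length of exon, the highest mean level in WT saline kidneys was that of Slc27a2, the transporter and synthetase for very long chains (694 CPM per kb), followed by Cat, encoding catalase (495 CPM per kb), Cyp4a10 (387 CPM per kb), Cyp4a14 (232 CPM per kb) and Ehhadh (199.5 CPM per kb). The lowest were Ppara (6.06 CPM per kb) and Acsm3 (1.53 CPM per kb). Acsm3 averaged 7.56 ± 1.55 CPM in WT saline kidneys on the Balb/c background (SD, n = 4) and 0.91 ± 0.64 CPM in actin-rtTA+ kidneys on the mixed background (SD, n = 4), whereas its chromosome 7 neighbour Acsm2 averaged 1441 ± 270.2 CPM in WT saline and 1319 ± 174 CPM in actin-rtTA+ kidneys. These values across experiments are set side by side without a test.

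Some members have near copies, whose reads may not be told apart. The longest transcripts of the peroxisomal thiolase genes Acaa1a and Acaa1b were 96.0% identical over 1450 aligned bases, with an identical stretch of 327 bases, longer than a read. Cyp4a10 was 97.2% identical to Cyp4a32 and 95.7% to Cyp4a31. The values of Acaa1a, Acaa1b and Cyp4a10 are therefore uncertain, while Cyp4a10 and Cyp4a14, at 75.8% with no identical stretch over 23 bases, can be told apart.

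Promoter sequence from RefSeq (GRCm38.p6, 250 bases before to 50 after each start) was matched for 29 of the 35 genes. PPAR alpha binds, with its partner RXR, to a direct repeat of AGGTCA with 1 base between the copies. With both strands searched and at most 2 mismatches allowed over the 12 repeat letters, the repeat stood in 4 of the 29 genes (13.8%) and in 4.40% of all 27025 genes searched. No member had it with 0 or 1 mismatch, and 0.64% of all genes had it with at most 1. The 4 matches are shown, with the repeat letters in capitals and the spacer in lower case, because their genes differed in direction after ADR. Cat, Echs1 and Etfa had negative log2 fold changes after ADR in both genotypes, and Slc25a20 positive ones, not all past the test. In i-TERTci kidneys all 4 were negative (-0.60, -0.64, -0.57 and -0.31 in this order).
Cat: AGGTCAgAGAACA
Echs1: AGGTCAcGGGTCC
Etfa: AGGGCAaAGGTAA
Slc25a20: AGGTGAaAGGTCG
The Cat match begins 204 bases before the start, on chr2:103485345-103485357, and differs from the repeat by G10A and T11A, counted from the first repeat letter. The Echs1 match lies 83 bases before the start (A8G and A13C), and the Etfa match 77 bases before it on the opposite strand (T4G and C12A). The Slc25a20 match begins 6 bases after the start (C5G and A13G). The bases upstream of the Cat start follow, on the minus strand of chr2:103485154-103485403, with the repeat in capitals.
Cat upstream: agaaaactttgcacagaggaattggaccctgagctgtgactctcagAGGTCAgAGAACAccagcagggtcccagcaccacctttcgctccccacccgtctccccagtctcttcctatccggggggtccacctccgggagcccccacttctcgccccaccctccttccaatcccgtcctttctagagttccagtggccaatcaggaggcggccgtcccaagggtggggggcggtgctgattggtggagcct
A match of letters is a description and does not show a bound site. Hadha and Hadhb, encoding both subunits of the mitochondrial trifunctional protein, lie head to head on chromosome 5 (Hadha on the minus strand at chr5:30118304-30155162, Hadhb on the plus strand at chr5:30155248-30184593) in the GENCODE annotation. They share the interval between these starts, chr5:30155163-30155247, which is printed here on the plus strand because the 2 genes can be followed as a pair through each comparison. No direct repeat within 2 mismatches was found in the promoter window of either gene.
Hadha-Hadhb interval: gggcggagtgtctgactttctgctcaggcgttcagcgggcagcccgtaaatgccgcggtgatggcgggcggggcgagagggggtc

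ADR in TERT WT/WT kidneys was compared with saline first. Of the 35 genes, 18 were lower after ADR and 0 were higher (edgeR quasi-likelihood test, Benjamini-Hochberg adjusted p under 0.05), where 12% of the 19023 genes tested were called lower and 15.2% higher. DESeq2 called 24 of the 35 lower (12.3% of the genes it gave an adjusted p called lower). By edgeR 8 were called in a fit of only these groups (7.92%), 9 in one fit of 19 libraries (9.25%) and 1 with all 13 libraries of the ADR experiment (0.728%). The median log2 fold change was -0.57 over the 35 genes and 0.01 over all genes tested, and 31 of the 35 had a negative value. All 3 WT ADR libraries lay below all 4 WT saline libraries for 18 of the 35 genes, which are not all the same 18 as those called, and for 16.2% of all genes tested. Whole-kidney RNA cannot tell fewer cells of a type from less RNA per cell, and this holds for every value here. The plot of log2 fold changes gives the 35 genes in the 3 main comparisons.

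**Figure D1:**
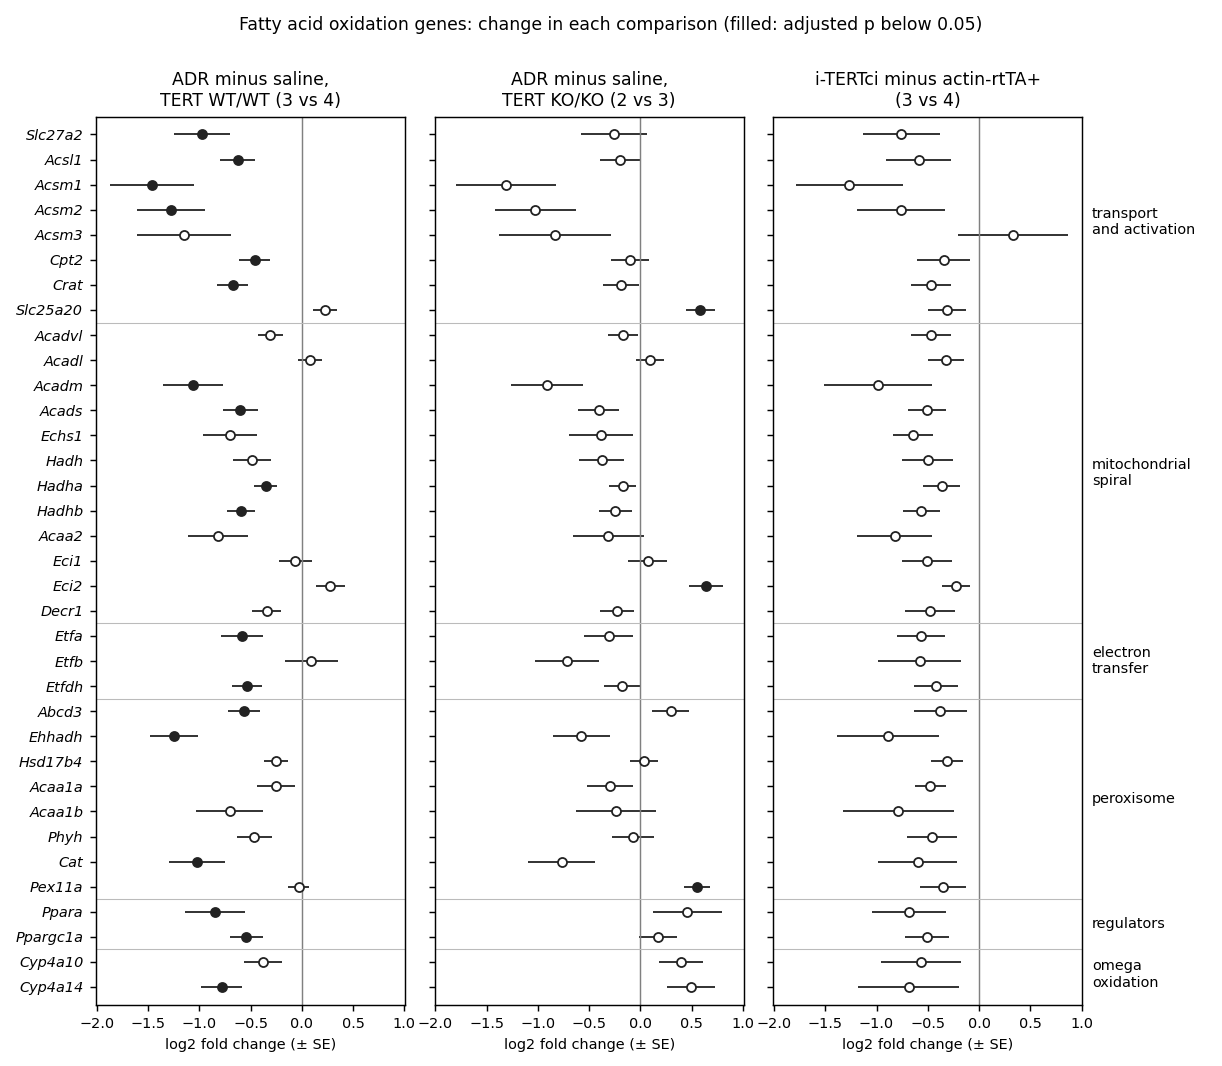
Log2 fold change with its standard error for each of the 35 genes, grouped by role, for ADR against saline in TERT WT/WT kidneys (left), ADR against saline in TERT KO/KO kidneys (middle) and i-TERTci against actin-rtTA+ kidneys (right). Filled points had an edgeR adjusted p under 0.05: 18 on the left, all negative, 3 in the middle, all positive, and 0 on the right, where 34 of 35 values were negative.

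Among the uptake, activation and carnitine genes, 6 of 8 were lower in WT ADR kidneys: Slc27a2, the long-chain synthetase gene Acsl1, the medium-chain synthetase genes Acsm1 and Acsm2, Cpt2 of the inner mitochondrial membrane, and Crat, the carnitine acetyltransferase. Crat had 179.6, 125 and 118 CPM in WT ADR kidneys, against 214, 227, 229 and 229 CPM in WT saline kidneys (-0.68 ± 0.15, edgeR adjusted p = 0.0087; the first value in such parentheses is the log2 fold change of ADR over saline, or as named, ± its standard error). The groups did not overlap, and replicate 1 of the ADR mice was the nearest to saline. Acsm2 had 989, 400.4 and 393 CPM in WT ADR kidneys, against 1145, 1311, 1545 and 1763 CPM in WT saline kidneys (-1.28 ± 0.33, edgeR adjusted p = 0.016). Acsm1 had the most negative log2 fold change of the 35 genes in this comparison, -1.46 ± 0.41 (edgeR adjusted p = 0.022), with 285, 86.1 and 62.4 CPM in WT ADR kidneys against 397, 369, 395 and 434 CPM in WT saline kidneys. In all 3 genes replicates 2 and 3 of the ADR mice were below replicate 1. Slc25a20, the carrier that exchanges acylcarnitine for carnitine across the inner membrane, had values in the other direction, with 45.7, 54.5 and 49.1 CPM in WT ADR kidneys against 43.8, 43.8, 44.4 and 38.1 CPM in WT saline kidneys; the ADR values were all above the saline values, but the test was not passed (0.23 ± 0.12, edgeR adjusted p = 0.16).

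Of the 12 spiral genes, 4 were lower in WT ADR kidneys: Acadm and Acads, the medium-chain and short-chain acyl-CoA dehydrogenases, and the trifunctional protein pair Hadha and Hadhb. Hadhb had 127, 101 and 101 CPM in WT ADR kidneys, against 141, 162, 185 and 176 CPM in WT saline kidneys (-0.60 ± 0.13, edgeR adjusted p = 0.0084), and its divergent partner Hadha had 337, 301 and 288 CPM against 381, 408, 412 and 379.9 CPM in the same order (-0.36 ± 0.11, edgeR adjusted p = 0.035). Neither pair of groups overlapped. Acadm had 559, 246 and 221 CPM in WT ADR kidneys, against 694, 592, 782 and 789 CPM in WT saline kidneys (-1.06 ± 0.29, edgeR adjusted p = 0.02). The long-chain and very-long-chain dehydrogenase genes did not pass: Acadl had a log2 fold change of 0.08 ± 0.12 and Acadvl one of -0.31 ± 0.12. Among these acyl-CoA dehydrogenases the calls were those for medium and short chains, while Hadha, also called, carries a long-chain hydroxyacyl-CoA dehydrogenase; that chain lengths differ was not tested. Echs1 (enoyl-CoA hydratase, -0.70 ± 0.26), Hadh (hydroxyacyl-CoA dehydrogenase, -0.48 ± 0.18), Acaa2 (mitochondrial thiolase, -0.82 ± 0.29) and Decr1 (dienoyl-CoA reductase, -0.34 ± 0.14) had negative values with edgeR adjusted p between 0.056 and 0.087. For the enoyl-CoA isomerases, Eci1 had -0.06 ± 0.16, and Eci2 had 82.3, 99.9 and 96.5 CPM in WT ADR kidneys against 84.2, 75.8, 74.6 and 71.8 CPM in WT saline kidneys (0.28 ± 0.14, edgeR adjusted p = 0.16), with overlapping groups.

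Of the 3 electron transfer genes, 2 were lower in WT ADR kidneys. Etfdh, the ubiquinone oxidoreductase, had 96.0, 76.2 and 81.2 CPM in WT ADR kidneys, against 105, 119, 135 and 132 CPM in WT saline kidneys (-0.54 ± 0.15, edgeR adjusted p = 0.019). Etfa, the alpha subunit of the flavoprotein, was called lower with an overlap, at 169.5, 95.1 and 89.6 CPM in WT ADR kidneys against 181, 182, 177 and 167 CPM in WT saline kidneys (-0.58 ± 0.20, edgeR adjusted p = 0.0484). Its partner subunit gene Etfb had 52.0, 35.4 and 20.6 CPM in WT ADR kidneys against 43.7, 34.3, 29.1 and 27.6 CPM in WT saline kidneys (0.09 ± 0.25); its values were scattered within both groups.

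In the peroxisome group 3 of 8 genes were lower in WT ADR kidneys: Ehhadh, the bifunctional hydratase and dehydrogenase; Cat; and Abcd3, an acyl-CoA importer of the peroxisomal membrane. Ehhadh (chr16:21761287-21787807, minus strand) had the smallest p of the 35 genes. It had 342, 204 and 205 CPM in WT ADR kidneys, against 512, 572, 739 and 556 CPM in WT saline kidneys (-1.25 ± 0.24, edgeR adjusted p = 0.0041), and even ADR replicate 1, close to saline for many genes, lay well below the saline range. Cat (chr2:103453849-103485160, minus strand) had 1030.3, 487 and 393 CPM in WT ADR kidneys, against 1351, 1257, 1310.2 and 1251 CPM in WT saline kidneys (-1.02 ± 0.27, edgeR adjusted p = 0.017). Abcd3 had 168, 112 and 112 CPM in WT ADR kidneys against 196, 196, 166 and 216 CPM in WT saline kidneys (-0.57 ± 0.16, edgeR adjusted p = 0.021), with replicate 1 inside the saline range. Hsd17b4, the other bifunctional enzyme of the peroxisome (-0.25 ± 0.11), Phyh, which starts the breakdown of phytanic acid (-0.46 ± 0.17), Acaa1a (-0.25 ± 0.19) and Acaa1b (-0.70 ± 0.33) did not pass the test. Pex11a, which promotes peroxisome division, had 36.7, 37.6 and 38.5 CPM in WT ADR kidneys against 38.0, 37.9, 40.6 and 37.2 CPM in WT saline kidneys (-0.03 ± 0.10), so that its values barely moved among these 7 mice.

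Both regulators were lower in WT ADR kidneys. Ppargc1a had 49.5, 41.3 and 56.1 CPM in WT ADR kidneys, against 56.5, 65.3, 75.8 and 87.3 CPM in WT saline kidneys (-0.54 ± 0.16, edgeR adjusted p = 0.024). Ppara had 18.7, 6.80 and 13.3 CPM in WT ADR kidneys against 16.8, 21.0, 23.5 and 31.7 CPM in WT saline kidneys (-0.85 ± 0.29, edgeR adjusted p = 0.0495), with overlapping groups and an adjusted p next to the threshold. Of the omega hydroxylases, which are induced through PPAR alpha in rodent liver and kidney, Cyp4a14 had 478, 262 and 311 CPM in WT ADR kidneys, against 623, 598, 647 and 543 CPM in WT saline kidneys (-0.78 ± 0.20, edgeR adjusted p = 0.015). Cyp4a10 had 693, 684 and 503 CPM in WT ADR kidneys against 1007, 801, 853 and 600.4 CPM in WT saline kidneys (-0.38 ± 0.18, edgeR adjusted p = 0.14) and overlapped.

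**Figure D2:**
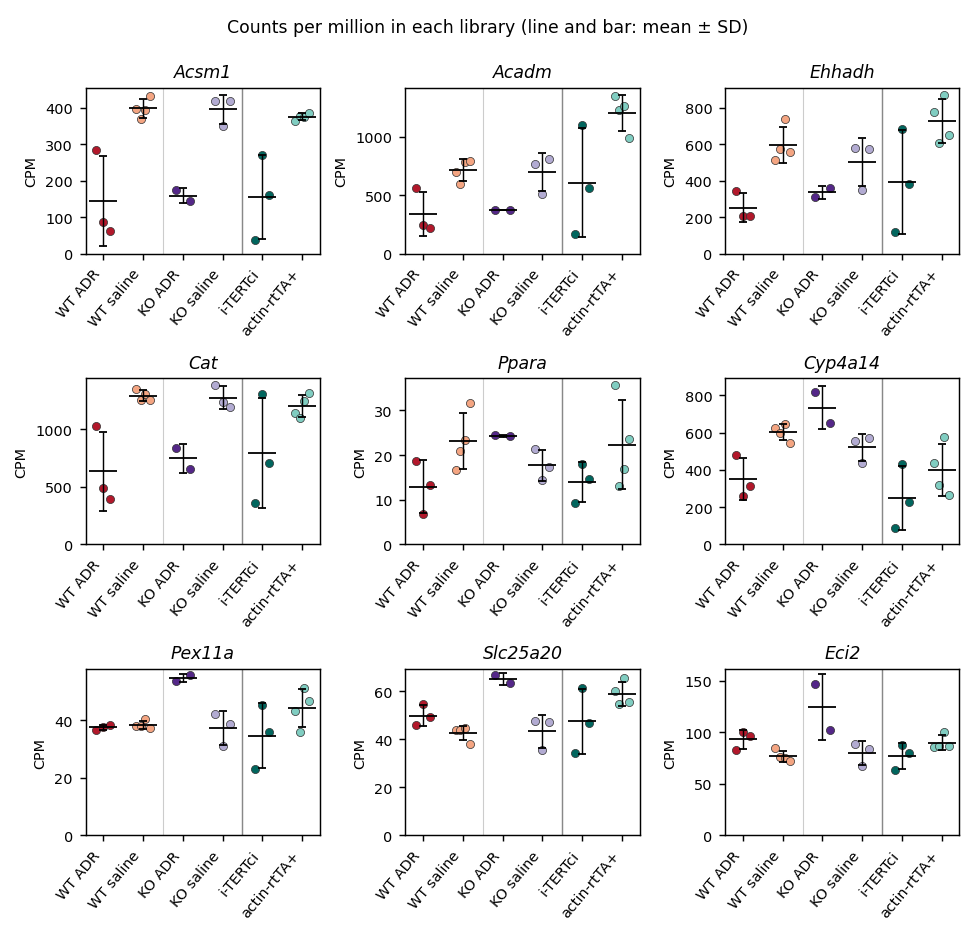
TMM-scaled CPM in each library for 9 of the genes, with the mean and SD of each group; vertical lines separate the genotypes and the experiments. Acsm1, Acadm, Ehhadh and Cat sit lower in WT ADR than in WT saline kidneys, and Cyp4a14 is low in WT ADR and high in KO ADR kidneys. Pex11a, Slc25a20 and Eci2 have their highest group mean in the KO ADR mice, of which 2 are shown. For Slc25a20, 1 actin-rtTA+ mouse (65.4 CPM) lies above 1 KO ADR mouse (63.3 CPM).

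The WT ADR mice differed from each other. By library, 19, 28 and 31 of the 35 genes in ADR replicates 1, 2 and 3 lay below all 4 saline libraries, where 31.3, 37 and 34.8% of all genes did. The mean log2 level of the 35 genes was -0.16, -0.80 and -0.89 relative to the saline mean. Over 16 proximal tubule markers, the same 3 libraries stood at -0.32, -1.75 and -1.87, and over 6 markers of injured tubule at 1.95, 4.74 and 4.67. In the edgeR test 9 of the 16 proximal tubule markers were lower after ADR and 0 higher (median log2 fold change -1.04). All 6 injured tubule markers were higher (median 4.05), 7 of 8 macrophage markers were higher (median 2.39), and of 6 fibroblast markers 4 were higher and 1 lower (median 0.71). Lcn2, a marker of tubular injury, had 93.5, 782 and 944 CPM in WT ADR kidneys, against 5.67, 8.07, 6.53 and 3.87 CPM in WT saline kidneys. Summed over each list, the proximal tubule markers came to 4247 to 15674 CPM in WT ADR and 18095 to 20401 CPM in WT saline libraries, the injured tubule markers to 959 to 4528 and 430.3 to 539 CPM, and the macrophage markers to 358 to 855 and 175 to 231 CPM in the same order, with no marker at 0. These lists moved with the oxidation genes in the same libraries. Markers of other cell types were lower too: 5 of 6 for podocytes (median -1.21) and 3 of 5 for endothelium (median -0.45). So were 3 of 6 thick ascending limb (median -0.46) and 3 of 9 distal tubule and collecting duct markers (median -0.18). Podocyte markers stood at -0.38, -2.04 and -1.98 in ADR replicates 1, 2 and 3. The part of all these markers in the result was not tested. When libraries were scaled to the proximal tubule markers instead, 23 of the 35 genes were called higher (83.3% of all genes called higher) and 0 lower, with a median log2 fold change of 0.81 against 1.46 over all genes. The number called lower was 27 without ADR replicate 1 (19.8% of all genes), 1, Ehhadh, without ADR replicate 2 (2.12% of all genes), 4 without ADR replicate 3 (5.63%), 7 without saline replicate 3 (5.94%) and 7 without saline replicate 4 (5.79%).

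**Figure D3:**
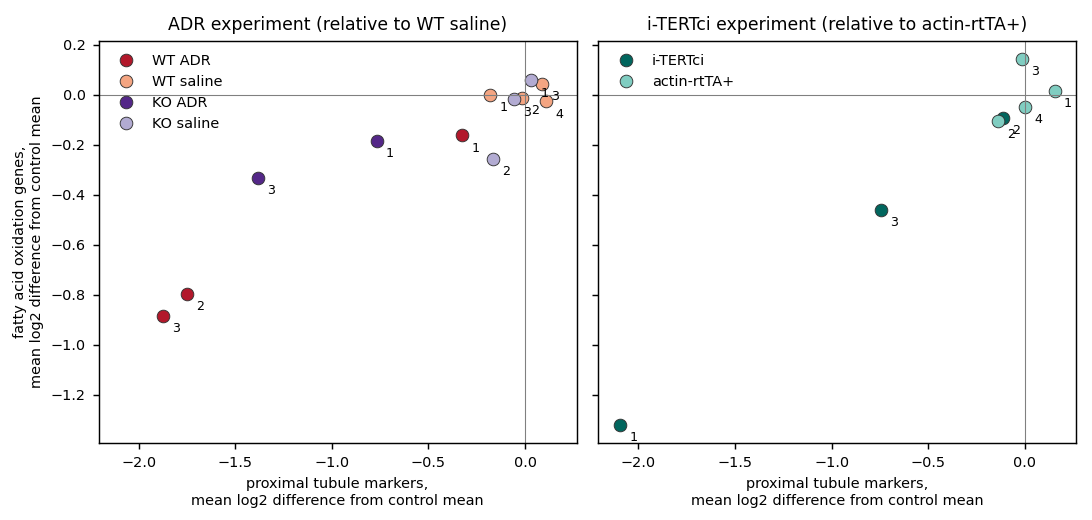
Mean log2 level of the 35 fatty acid oxidation genes (vertical) against that of 16 proximal tubule markers (horizontal) in each library, relative to the mean of WT saline libraries (left) or of actin-rtTA+ libraries (right); numbers are replicates. Points at lower left are WT ADR replicates 2 and 3, at -0.80 and -0.89 on the vertical axis, and i-TERTci replicate 1, at -1.32.

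Of 93 other genes of this metabolism (further dehydrogenases, oxidases, thioesterases, peroxins, regulators and ketone enzymes), 90 were tested, and 37 were lower and 6 higher in WT ADR kidneys by edgeR. Over all genes tested 12% were called lower and 15.2% higher. Those with the smallest p were Slc22a5, the carnitine importer, with 132, 94.8 and 95.5 CPM in WT ADR kidneys against 179, 199.7, 238 and 226 CPM in WT saline kidneys (-0.97 ± 0.19, edgeR adjusted p = 0.0043), and Acad9, an acyl-CoA dehydrogenase and complex I assembly factor (-1.15 ± 0.23), among those lower. Cyp4a12b, an omega hydroxylase (3.28 ± 0.45), and Cpt1c, the brain-type carnitine palmitoyltransferase (1.41 ± 0.27), had the smallest p of those that were higher. Next was Pdk4, a kinase that inhibits pyruvate dehydrogenase (2.88 ± 0.55). The median of the list was -0.39.

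The same comparison in TERT KO/KO kidneys rested on 2 ADR and 3 saline mice. Of the 35 genes, 3 were higher after ADR (3.83% of 19023 genes called higher) and 0 were lower (1.43% called lower). The median log2 fold change was -0.20, with 24 negative and 11 positive values. The 3 were Pex11a, Slc25a20 and Eci2. Pex11a had 53.8 and 55.7 CPM in KO ADR kidneys, against 42.3, 30.9 and 38.8 CPM in KO saline kidneys (0.55 ± 0.12, edgeR adjusted p = 0.026). Slc25a20 had 66.7 and 63.3 CPM in KO ADR kidneys, against 47.6, 35.4 and 47.0 CPM in KO saline kidneys (0.58 ± 0.14, edgeR adjusted p = 0.033). Eci2 had 147 and 102 CPM in KO ADR kidneys, against 88.9, 66.9 and 84.1 CPM in KO saline kidneys (0.64 ± 0.17, edgeR adjusted p = 0.0468). In each of them both ADR mice exceeded all 3 saline mice. Among the 35 genes both ADR mice were above all 3 saline mice for 7 and below them for 12. The share of all genes so separated was not counted here, and 2 against 3 mice separate more easily than 3 against 4. Without KO ADR replicate 1, KO saline replicate 2 or KO saline replicate 3 the number called higher was 0, and it was 1 without KO ADR replicate 3, KO saline replicate 1, WT saline replicate 2 or WT saline replicate 3. Without WT ADR replicate 1, 4 genes were called higher (10.3% of all genes) and 6 lower (7.61%). In a fit of only these groups 0 were called higher, and Acsm1, Acsm3, Acadm, Etfb and Cat were called lower (5 genes, where 3.83% of all genes were called lower).

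Several genes that were lower in WT ADR kidneys had negative values in KO kidneys that did not pass. Acsm1 had 174 and 144 CPM in KO ADR kidneys, against 418, 350.1 and 419 CPM in KO saline kidneys (-1.31 ± 0.49, edgeR adjusted p = 0.13). Acadm had 369 and 370.0 CPM in KO ADR kidneys, against 761, 509 and 811 CPM in KO saline kidneys (-0.91 ± 0.35, edgeR adjusted p = 0.14). Cat had 838 and 657 CPM in KO ADR kidneys, against 1388, 1242 and 1196 CPM in KO saline kidneys (-0.77 ± 0.33, edgeR adjusted p = 0.17). The groups did not overlap in any of the 3. Among electron transfer genes Etfb had 34.3 and 28.6 CPM in KO ADR kidneys against 43.7, 57.4 and 54.1 CPM in KO saline kidneys (-0.72 ± 0.31, edgeR adjusted p = 0.18) and Etfa had 150.5 and 121 CPM against 188, 142 and 175 CPM in the same order (-0.31 ± 0.24).

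The regulators and omega hydroxylases had positive values in KO kidneys, none past the test. Ppara had 24.5 and 24.2 CPM in KO ADR kidneys, against 21.3, 14.4 and 17.4 CPM in KO saline kidneys (0.46 ± 0.34, edgeR adjusted p = 0.43), and Ppargc1a had 63.7 and 59.4 CPM against 62.7, 53.1 and 48.5 CPM (0.17 ± 0.18). Cyp4a14 had 818 and 652 CPM in KO ADR kidneys, against 554, 439 and 571 CPM in KO saline kidneys (0.50 ± 0.23, edgeR adjusted p = 0.21), and Cyp4a10 had 1078 and 958 CPM against 800.0, 727 and 799 CPM (0.39 ± 0.22). For Ppara and both hydroxylases, among the 7 members so separated, each ADR mouse was above each saline mouse. Abcd3, lower in WT ADR kidneys, had 181 and 192 CPM in KO ADR kidneys against 167, 138 and 152 CPM in KO saline kidneys (0.29 ± 0.18, edgeR adjusted p = 0.35), again without overlap. Proximal tubule markers stood at -0.77 and -1.38 in the KO ADR replicates and 0.03, -0.16 and -0.06 in the KO saline replicates relative to WT saline, and injured tubule markers at 2.60 and 3.86 against -0.13, 0.24 and -0.01; the oxidation genes stood at -0.18 and -0.33 against 0.06, -0.26 and -0.02. Summed, the proximal tubule markers came to 7293 to 10574 CPM in KO ADR and 17413 to 19736 CPM in KO saline libraries, with no marker at 0, and 2 of the 16 were lower and 0 higher by edgeR. By the same test 3 of 6 injured tubule, 3 of 8 macrophage and 3 of 6 fibroblast markers were higher. The part of these cell markers in the result was not tested. Of the other pathway genes, 90 were tested, and by edgeR 2 were higher and 2 lower in KO ADR kidneys. Over all genes tested 3.83% were called higher and 1.43% lower. The higher ones were Acsl4, a synthetase for polyunsaturated chains (1.11 ± 0.27), and Cyp4a12b (2.17 ± 0.52). The lower ones were Acsf2 (-0.45 ± 0.11) and the peroxin gene Pex6 (-0.82 ± 0.21).

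**Figure D4:**
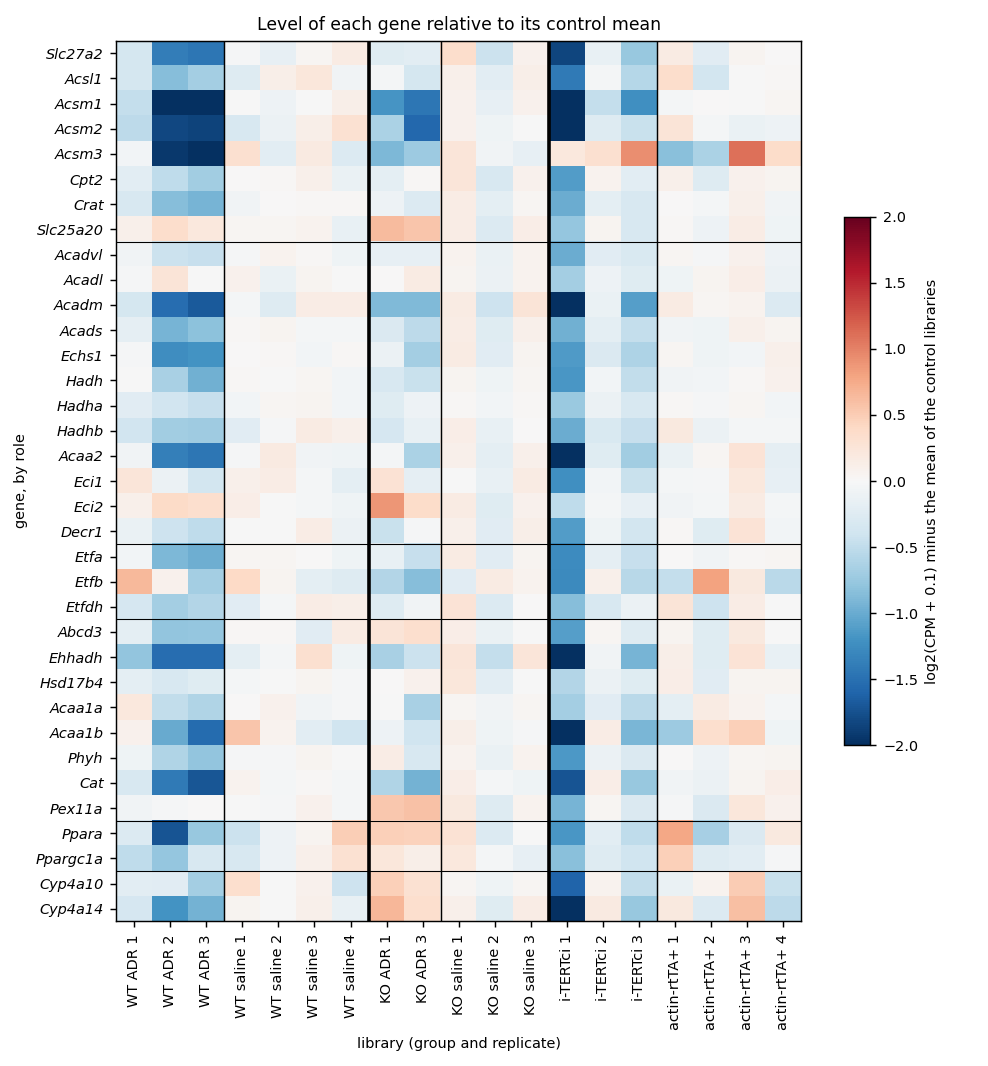
Log2 level of each gene in each library relative to the mean of the saline libraries of its genotype, or of the actin-rtTA+ libraries; colours are limited to values between -2 and 2, heavy lines separate the genotypes and experiments, and thin lines the groups and roles. WT ADR replicates 2 and 3 and i-TERTci replicate 1 are blue for most genes, and both KO ADR libraries shown are red for genes that include Pex11a, Slc25a20, Ppara, Cyp4a10 and Cyp4a14.

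The genotypes were then compared directly. Between saline mice of both genotypes, 0 of the 35 genes passed the edgeR test, where 0.00526% of all genes were called; 3 of the 35 and 8.79% of all genes had an unadjusted p under 0.05, and DESeq2 called 0. After ADR, 0 of the 35 differed by edgeR (0.0736% of all genes called), 7 had an unadjusted p under 0.05 (7.66% of all genes) and DESeq2 called 2, Cyp4a14 and Pex11a (0.647% of genes). The values were positive, that is higher in KO ADR than in WT ADR kidneys, for 34 of 35 genes. Their median was 0.23, against 0.00056 over all genes tested. In this comparison 10 of 16 proximal tubule markers were positive (median 0.21). All 6 injured tubule (median -0.93) and all 8 macrophage markers (median -0.66) were negative. With libraries scaled to the proximal tubule markers, the median of the 35 genes was 0.0029, against -0.34 over all genes. The part of these markers was not tested. Cyp4a14 had 818 and 652 CPM in KO ADR kidneys, against 478, 262 and 311 CPM in WT ADR kidneys (1.07 ± 0.23, edgeR adjusted p = 0.19), and Pex11a had 53.8 and 55.7 CPM in KO ADR kidneys, against 36.7, 37.6 and 38.5 CPM in WT ADR kidneys (0.54 ± 0.12, edgeR adjusted p = 0.20). Neither gene's groups overlapped. In all, 9 of the 35 genes had both KO ADR mice above all 3 WT ADR mice, and the share of all genes was not counted. Without WT ADR replicate 1, the mouse nearest to saline, 10 of the 35 were called higher in KO ADR kidneys (2.44% of all genes called higher). The number was 0 without WT ADR replicate 2 (0.0106% of all genes) and 0 without WT ADR replicate 3 (0.107%). With replicate 1 left out, the WT ADR mice stood at 4.74 and 4.67 over the injured tubule markers, relative to WT saline, and the KO ADR mice at 2.60 and 3.86. The part of this gap in the 10 calls was not tested.

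The difference between the ADR effects, KO/KO minus WT/WT, was called for 0 of the 35 genes and for 0% of all genes by edgeR. An unadjusted p under 0.05 was seen for 6 of the 35 and for 12% of all genes, and DESeq2 called 1, Cyp4a14 (0.74% of genes). The 6 were Cyp4a14 (difference 1.28 ± 0.31, edgeR adjusted p = 0.26), Ppara (1.30 ± 0.45), Abcd3 (0.86 ± 0.24), Cyp4a10 (0.77 ± 0.28), Ppargc1a (0.71 ± 0.24) and Pex11a (0.58 ± 0.16), all with positive differences. The saline mice enter each difference with the opposite sign. In saline, KO/KO minus WT/WT was -0.21 for Cyp4a14, -0.39 for Ppara, -0.34 for Abcd3, -0.07 for Cyp4a10, -0.38 for Ppargc1a and -0.04 for Pex11a. For Etfb it was 0.62. Abcd3, Ppargc1a and Etfb were the 3 genes with an unadjusted edgeR p under 0.05 in saline. Of the 35 differences 33 were positive and 2 negative (Etfb, -0.81 ± 0.40, and Acaa1a, -0.04 ± 0.29). Their median was 0.35, against -0.01 over all genes. With libraries scaled to the proximal tubule markers it was 0.056, against -0.42 over all genes. That 18 genes were called lower after ADR in WT kidneys and 0 in KO kidneys is therefore not shown to be a difference between the genotypes, and the KO comparison had fewer mice. Without WT ADR replicate 1, 5 genes had a called difference, where 1.71% of all genes had one (Acsm1, Acsm3, Acaa2, Abcd3 and Cyp4a14). Leaving out WT ADR replicate 2 or 3 instead gave 0 of the 35.

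In the i-TERTci experiment 0 of the 35 genes were called by edgeR, where 0.00564% of 17745 genes were called. The unadjusted p was under 0.05 for 9 of the 35 and for 22.4% of all genes, a share near that of the members, and DESeq2 called 1, Echs1, as lower (1.99% of genes called lower). Values were negative, lower in i-TERTci kidneys, for 34 of 35 genes, with a median log2 fold change of -0.51 against 0.02 over all genes, and 13 genes had all 3 i-TERTci libraries below all 4 actin-rtTA+ libraries, as had 8.17% of all genes. The exception was Acsm3, at 0.91, 0.98 and 1.56 CPM in i-TERTci kidneys and 0.39, 0.46, 1.77 and 1.02 CPM in actin-rtTA+ kidneys.

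The i-TERTci mice were spread widely. Relative to the actin-rtTA+ mean the 35 genes stood at -1.32, -0.09 and -0.46 in replicates 1, 2 and 3, and 34, 13 and 30 of the 35 lay below all 4 actin-rtTA+ libraries, where 33.2, 19.7 and 26.1% of all genes did. Ehhadh had 117, 686 and 379.8 CPM in i-TERTci kidneys, against 779.7, 609, 873 and 653 CPM in actin-rtTA+ kidneys (-0.89 ± 0.50, edgeR adjusted p = 0.33). Acadm had 165, 1096 and 558 CPM in i-TERTci kidneys, against 1345, 1226, 1259 and 987 CPM in actin-rtTA+ kidneys (-0.99 ± 0.53, edgeR adjusted p = 0.31). Cyp4a14 had 88.5, 431 and 227 CPM in i-TERTci kidneys, against 435, 317, 579 and 266 CPM in actin-rtTA+ kidneys (-0.68 ± 0.49). In these genes replicate 1 was far below every control, replicate 3 lay between the other i-TERTci mice and still below every control, and replicate 2 was within the control range. The smallest p among the 35 belonged to Echs1, with 80.5, 144 and 115 CPM in i-TERTci kidneys against 180.1, 166, 169 and 189.5 CPM in actin-rtTA+ kidneys (-0.64 ± 0.20, edgeR adjusted p = 0.12), and to Acaa1a (-0.48 ± 0.15) and Hadhb, with 67.5, 109.7 and 97.6 CPM against 154, 125, 131 and 131 CPM in the same order (-0.56 ± 0.18, edgeR adjusted p = 0.13). For Echs1 and Hadhb every i-TERTci mouse was below every control, with smaller folds than for Ehhadh or Acadm but less spread between mice.

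By role, the medians in i-TERTci kidneys were -0.53 for uptake, activation and carnitine genes, -0.50 for the spiral, -0.57 for electron transfer, -0.47 for the peroxisome, -0.60 for the regulators and -0.62 for the omega hydroxylases. Slc25a20 (-0.31 ± 0.19), Eci2 (-0.22 ± 0.14) and Pex11a (-0.35 ± 0.23), the 3 genes higher in KO ADR kidneys, had negative values here. Acsm1 (-1.27 ± 0.52) had the most negative value of the 35, as in WT ADR kidneys (-1.46). Proximal tubule markers stood at -2.09, -0.11 and -0.74 and injured tubule markers at 4.09, 0.83 and 3.29 in i-TERTci replicates 1, 2 and 3, so that the same mice were low in both the oxidation genes and the tubule markers. Summed, the proximal tubule markers came to 4237 to 20016 CPM in i-TERTci and 20478 to 22182 CPM in actin-rtTA+ libraries, with no marker at 0, and 0 of the 16 were called by edgeR. Macrophage markers stood at 3.10, 0.38 and 2.37 and fibroblast markers at 1.63, 0.55 and 1.79 in the same replicates. The macrophage markers summed to 228 to 1593 CPM in i-TERTci and 150.4 to 227 CPM in actin-rtTA+ libraries. The fibroblast markers summed to 389 to 2024 CPM in i-TERTci and 242 to 354 CPM in actin-rtTA+ libraries. The 8 adipocyte markers summed to 3.34 to 8.28 CPM in i-TERTci and 0.81 to 3.83 CPM in actin-rtTA+ libraries, with Lep at 0 in at least 1 library of each group. All 8 macrophage, all 6 fibroblast and all 5 adipocyte markers tested had positive log2 fold changes (medians 2.26, 1.20 and 1.29). Of them edgeR called 0, and 7, 5 and 3 had an unadjusted p under 0.05. The part of these markers was not tested. Scaled to the proximal tubule markers, the median of the 35 genes was 0.49 against 1.23 over all genes, with 0 called. Without i-TERTci replicate 2, 16 of the 35 were called lower (8.43% of all genes called lower), among them Ehhadh, Cat, Acadm and Slc27a2. Of the other pathway genes 0 of 89 tested were called by edgeR, 78 had negative values, and 35 had an unadjusted p under 0.05 (22.4% of all genes).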

How the data were processed

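Whole-kidney RNA of 20 mice was sequenced in paired ends. The authors deposited raw counts per gene, not normalized; per the labels, the submitters' processing notes name FastQC, Trimmomatic, STAR, mm10 and DESeq2. The counting tool, annotation and strand setting are not given in the sources used here, so overlapping antisense genes cannot be told apart. Of 55471 identifiers, 54573 matched GENCODE M21 with their version, 55230 without it and 241 not at all; no row was a total or unassigned class. Totals ran between 39323498 and 48399322 counts (median 45705605.5).

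The 35 genes and all lists were chosen with earlier results of these data known. Roles and the naming rule stood in the design: all members are named, and values in every library are given, in comparisons with calls, for the 2 members of a role with the smallest p, both regulators and members against their role; values of other members, and of members in the comparison without calls, were chosen after seeing them. Counts were tested with edgeR 4.0.16 in R 4.3.3 (filterByExpr, TMM, robust quasi-likelihood F test, Benjamini-Hochberg over all genes tested, called at 0.05). The ADR experiment was fitted on 12 libraries with 1 coefficient per group (19023 genes), leaving out KO ADR replicate 2, and the i-TERTci experiment on 7 libraries (17745 genes). CPM are TMM-scaled, except for KO ADR replicate 2 (plain CPM). Library means of log2 levels used log2(CPM + 0.1). Each library is a separate mouse in the labels, so p-values measure the spread between mice. The fits were tested on simulated counts. Alternatives were median-ratio size factors, scaling to proximal tubule markers, no count filter, a filter at a mean of 1 CPM, a replicate block, DESeq2 1.42.0, only the groups compared, 19 libraries in one fit, all 13 ADR libraries, and each library left out; DESeq2 on all 13 libraries was added after seeing the data. Same-numbered libraries had correlations of -0.34 to 0.36 over 15 pairs in the ADR experiment, and other libraries -0.36 to 0.33 over 38 pairs. With groups of 2 to 4 mice this check cannot exclude that numbers pair mice. The main fit used no pairing. Promoter letters are from RefSeq (GRCm38.p6), and transcript identity is from GENCODE M21; proteins were not used here.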

Additional observations from a re-analysis of the deposited data

Results flagged for a closer look

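Each gene's CPM was checked in both groups of 4 mice for a value far from the other 3 (Dixon's test at 95%). Over 70 checks, 4 stood out, near the 1 in 20 that chance gives. Cpt2 had 129.9 CPM in 1 actin-rtTA+ mouse, against 162 to 167 CPM in the others, and Eci2 had 100.4 CPM in 1 actin-rtTA+ mouse, against 85.4 to 87.0 CPM. Crat had 214 CPM in 1 WT saline mouse, against 227 to 229 CPM, and Slc25a20 had 38.1 CPM in 1 WT saline mouse, against 43.8 to 44.4 CPM. The Crat mouse was still above all 3 WT ADR mice.

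The liver-like library labelled KO ADR replicate 2, left out of every group, had 7 of the 35 genes above all 7 saline libraries of the ADR experiment and 23 below them. In plain CPM, not comparable in scale with the other libraries because Alb alone held 261234 CPM there, Ppara was at 70.6 CPM, against 14.4 to 31.7 CPM in the saline libraries, and Acsm3 at 35.3 CPM, against 6.11 to 9.50 CPM. Phyh was at 624 CPM (saline 293 to 345 CPM), Acaa2 at 413 CPM (199 to 287 CPM), Cat at 1586 CPM (1196 to 1388 CPM), Hsd17b4 at 195 CPM (142 to 192 CPM) and Eci2 at 98.3 CPM (66.9 to 88.9 CPM). Acsm2 was at 2.41 CPM, Cyp4a14 at 10.3 CPM and Cyp4a10 at 27.3 CPM, each below every saline library.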

How the results depend on the processing

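With median-ratio size factors the counts of called members were as reported, and 0 genes in all were called for i-TERTci. Scaling libraries to the proximal tubule markers, a choice that holds these markers fixed, gave 23 members higher and 0 lower after ADR in WT kidneys (15893 genes called) and 14 higher in KO kidneys (7432 genes called), with members' medians of 0.81, 0.84 and, for i-TERTci (7025 genes called), 0.49; 1 gene was called after ADR between genotypes and 1 for the difference of ADR effects. Of the 18 members called lower in WT ADR kidneys, 16 then had positive log2 fold changes: Slc27a2 0.27, Acsl1 0.76, Cpt2 0.92, Crat 0.67, Acadm 0.13, Acads 0.72, Hadha 1.07, Hadhb 0.81, Etfa 0.69, Etfdh 0.88, Abcd3 0.77, Ehhadh 0.070, Cat 0.16, Ppara 0.46, Ppargc1a 0.94 and Cyp4a14 0.53. Without a filter on low counts, 1 member (Cyp4a14) and 41 genes were called between genotypes after ADR, 6 genes in saline, 23 for the difference and 23 for i-TERTci; with a mean of at least 1 CPM, 0 genes were called in saline and 0 for i-TERTci.

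With the replicate block the members called were 17 lower in WT and 0 higher in KO ADR kidneys, with 1 gene called between genotypes after ADR. Whether the numbers pair mice is not known. The block changed no other call of members. DESeq2 called 24 members lower in WT ADR kidneys, and 3 higher and 1 lower in KO ADR kidneys (2147 genes). It called 2 between genotypes after ADR (127 genes), 1 for the difference (131 genes), 1 for i-TERTci (1990 genes) and 21 genes in saline. Fitting only the groups compared gave 8 lower in WT, and 0 higher and 5 lower in KO ADR kidneys (1710 genes), 2 genes in saline and 0 after ADR. One fit of 19 libraries gave 9 lower in WT, 0 higher in KO ADR kidneys (555 genes), 6 genes for the difference and 1 member lower in i-TERTci (2166 genes). With all 13 ADR libraries, 1 member was lower in WT (894 genes) and 0 higher in KO ADR kidneys (295 genes; members' median 0.18), with 0 genes called between genotypes in saline or after ADR. DESeq2 on those 13, added after seeing the data, gave 6 lower in WT (2256 genes), 4 higher in KO ADR kidneys (1807 genes; members' median 0.19), 2 between genotypes after ADR (121 genes) and 72 genes for the difference.

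Leaving out each mouse in turn gave 1 to 27 members lower in WT ADR kidneys (1708 to 7810 genes called), 0 to 4 higher and 0 to 6 lower in KO ADR kidneys (177 to 3393 genes), 0 to 10 between genotypes after ADR (0 to 782 genes), 0 to 5 for the difference (0 to 325 genes), 0 to 16 lower in i-TERTci (0 to 4325 genes) and 0 to 2 genes in saline. The members' median kept its sign in WT ADR (-0.78 to -0.45), KO ADR (-0.30 to -0.13) and i-TERTci (-0.72 to -0.27) kidneys. Where an arm was left with 1 mouse, it was assumed to vary like the other groups. The causes of these shifts were not tested. Groups of 2 to 4 mice, and mice that differed widely within a group, limit the precision.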
